A study of Drosophila melanogaster with 6 samples.

Results

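The regions described here are the 428 ChIP-seq peaks narrower than 2 kb on chromosome arm 2L of Drosophila melanogaster. They were chosen by 2 values of the deposited peak list, the sequence name 2L (the separate heterochromatin sequence 2LHet not included) and a width under 2000 bp. They are 428 of the 500 peaks on 2L and of 9881 peaks in the whole list. Of the 500, 72 were 2 kb or wider. They were set beside the peaks under 2 kb on X (322), 3L (467) and 3R (424). Coordinates are those of FlyBase release 5 and count from 1.

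The 3 ChIP libraries were made from white prepupae with a mouse monoclonal antibody (crude, listed against tango), and the 3 input libraries from unprecipitated DNA of the same stage. All 6 came from the strain Y cn bw sp. Its genotype is listed with y[1] and oc[R3.2], then Gr22b[1] and Gr22d[1] with cn[1], CG33964[R4.2], bw[1] and sp[1], then LysC[1] and lab[R4.2] with MstProx[1], GstD5[1] and Rh6[1]. The material is whole animals, so a peak could come from any of their tissues. Titles name TCF where the antibody entry names tango, and the regions are therefore not ascribed to either protein.

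Tango, the fly counterpart of ARNT, is a bHLH-PAS transcription factor that works as the shared partner of more restricted bHLH-PAS proteins. Single-minded pairs with it in the midline of the nervous system, Trachealess in the tracheae and salivary ducts, Spineless in antenna and leg, and Similar in the response to low oxygen. TCF in the fly is pangolin, the DNA-binding effector of Wingless signalling. White prepupae stand at the onset of metamorphosis, when a pulse of the steroid ecdysone starts the breakdown of larval tissues and the eversion of the imaginal discs. Arm 2L is a euchromatic arm of the second chromosome, with its centromere at the high end of the coordinates, and is known for carrying wingless, decapentaplegic and the tandem array of replication-dependent histone genes. Genome sequence and gene annotation of release 5 were not used here, so no gene, motif or sequence is given for a peak.

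The list holds 1 start, 1 end and 1 score per peak for the series as a whole. The score is the authors' peak caller's, and which statistic it is was not given in the sources used here. It ranks peaks within the list and is not read as occupancy. No value belongs to a single library, so the spread between replicates and the read depth are unknown, and none of the differences below was tested. Because the list's calls and widths also chose the members, their scores and widths are a description. Shares carry Wilson 95% intervals and medians order-statistic 95% intervals. Both reflect counting error alone and assume independent peaks, which neighbours are not.

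Most 2L peaks under 2 kb were narrow and scored low, and a small set scored far above the others. The median width was 485.5 bp (interval 451 to 550 bp), the quartiles were 327 and 808.25 bp, and the extremes 201 and 1883 bp. The median score was 19.78 (interval 18.35 to 21.84), the quartiles were 12.82 and 38.57, and the extremes 6.76 and 887.53. Scores thus stretched much farther above the median than below it. The whole list's quartiles of score, 14.1 and 46.84 around a median of 21.84, divide the 428 peaks into 137 below the lower one and 99 at or above the upper one (23.1%, interval 19.4 to 27.4%). A score of 100 or more was reached by 48 peaks (11.2%, interval 8.56 to 14.6%), of 200 or more by 16, of 300 or more by 12 and of 500 or more by 7. The limit of 100, used below to mark the high-scoring peaks, was chosen after the scores were seen.

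The 20 highest-scoring members were mostly single peaks. Of the 20, 15 had no other 2L peak within 5 kb. For some of these the nearest peak was not much farther, at 6724 bp for rank 9 and 8458 bp for rank 8. The scores of the 20 were 186.63 to 887.53 at widths of 405 to 1633 bp (median 877.5 bp). The first, 2L 479978 to 481610, was 1633 bp wide and scored 887.53. It lay 124645 bp after the preceding peak and 2297 bp before the next. The second, 2L 8204606 to 8205980, was 1375 bp wide and scored 761.91, with gaps of 86404 and 49413 bp on its sides. The third, 2L 20864453 to 20865311, was narrower at 859 bp, scored 730.07 and also stood alone. The fourth was different in its surroundings. At 2L 20197412 to 20198116, 705 bp wide with a score of 630.12, it followed a peak of 2 kb or more after 521 bp and was in a run of 5 peaks.

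Ranks 5 to 7 scored above 500 and had no neighbour within 5 kb. They were 2L 1119090 to 1119985 with a score of 536.14, 2L 6065799 to 6066613 with 535.23, and 2L 9956388 to 9957577 with 501.89. Ranks 8 to 12 scored 342.47 to 450. They were 2L 19489915 to 19490742 (score 450), 2L 3888811 to 3889622 (437.93), 2L 19572218 to 19573361 (434.5), 2L 7973366 to 7974387 (413.22) and 2L 13955658 to 13956179 (342.47). Of these 5, 3 stood alone, while the peak with 434.5 was in a run of 2 and the peak with 413.22 in a run of 5 that also held a peak of 2 kb or more. Ranks 13 to 16 were single peaks with scores of 224.22 to 295.5, at 2L 4333254 to 4333933, 2L 1426256 to 1427306, 2L 1184842 to 1186109 and 2L 13378018 to 13379236. Ranks 17 to 20, with scores of 186.63 to 192.63, were 2L 18616541 to 18617456, 2L 16859062 to 16859802, 2L 20787271 to 20787675 and 2L 8541769 to 8542355. Among these last 4 the narrowest of the 20 appeared, the peak of 405 bp with a score of 187.3, and only the peak at 16859062 had a neighbour, 122 bp before it.

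At the low end, 2L 166673 to 166888 scored 6.76 with a width of 216 bp. It was followed by 2L 16293682 to 16293955 with 6.95, 2L 18409521 to 18409737 with 7.5, and by 2L 20581335 to 20581726 and 2L 2777451 to 2777751 with 7.69 each. These 5 were 216 to 392 bp wide, and 3 of them lay within 100 bp of another peak.

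**Figure D1:**
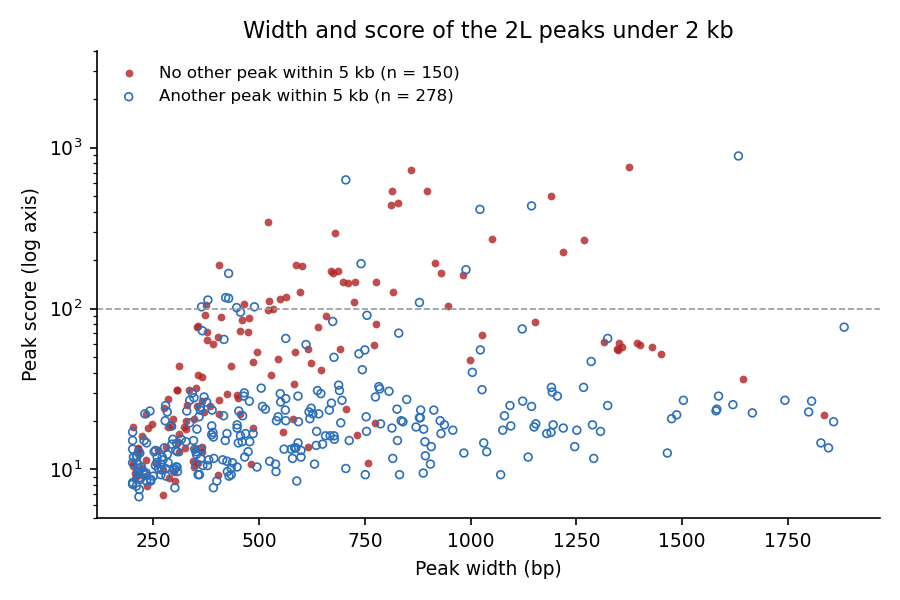
Width in bp (horizontal axis) against peak score (vertical log axis) of the 428 2L peaks under 2 kb. Filled points have no other 2L peak within 5 kb (150 peaks) and open points have one (278 peaks), and the dashed line marks a score of 100, above which 34 of 48 points are filled.

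High scores were found above a certain width, but wide peaks were not all high. None of the 88 peaks up to 300 bp wide scored above 27.54, and their median was 11.01. The median was 17.79 over 300 and up to 400 bp (77 peaks), 23.06 up to 600 bp (93 peaks), 26.88 up to 1000 bp (101 peaks) and 26.56 above 1000 bp (69 peaks). The median thus differed little between the 2 widest classes, while the spread within them was wide. In the class of 600 to 1000 bp, 24 peaks scored 100 or more (23.8%, interval 16.5 to 32.9%) and 54 scored under 30 (53.5%). In the class above 1000 bp, 8 reached 100 (11.6%, interval 5.99 to 21.2%) and 39 scored under 30 (56.5%). Across the 428 peaks, which share 1 list, width and score had a Spearman's rho of 0.49. Among the 194 peaks at or above the list's median score it was 0.17, and among the 99 at or above the upper quartile 0.03. Both sets are cut on the score itself, and a narrower range of score can lower rho by itself. The fall is therefore not read as a change in how width and score go together. The 48 peaks with scores of 100 or more had widths of 364 to 1633 bp (median 716.5 bp), and the other 380 had widths of 201 to 1883 bp (median 456 bp).

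A group of single wide peaks with nearly the same width and score stood out in the plot of width against score. Between 1300 and 1500 bp wide, 2L held 16 peaks, of which 9 stood alone and scored between 50 and 65. Their widths were 1316 to 1451 bp (median 1358 bp), their scores 51.84 to 61.49 (median 57.47), and the nearest other peak to any of them was 20391 bp away. They lay at 2L 2750908 to 2752307, 12861790 to 12863136, 12894112 to 12895427, 15653143 to 15654536, 15686734 to 15688162, 15721807 to 15723157, 15956085 to 15957433, 17199236 to 17200593 and 17951994 to 17953444. Of the 9, 3 followed each other as neighbours from 15653143 to 15723157 with gaps of 32197 and 33644 bp, and the pair from 12861790 to 12895427 had a gap of 30975 bp. The other 7 peaks of that width on 2L scored from 12.64 to 761.91, with 5 at or below 24.94. The other arms together held 33 peaks of that width, of which 1, on 3R, stood alone with such a score. The limits were drawn after the group was seen, so no test is given, and the sequences of these peaks were not compared.

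Peaks on 2L stood either very near each other or far apart. Of the 499 gaps between neighbouring 2L peaks of any width, 58 were under 100 bp and 111 were 100 to 499 bp, so 169 (33.9%, interval 29.9 to 38.1%) were under 500 bp. Only 66 (13.2%) were between 500 bp and 5 kb, while 117 (23.4%) were between 5 and 50 kb and 147 (29.5%) were 50 kb or longer. No gap was shorter than 50 bp on any of the 4 arms. The median gap on 2L was 9999 bp and the longest 456402 bp.

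**Figure D2:**
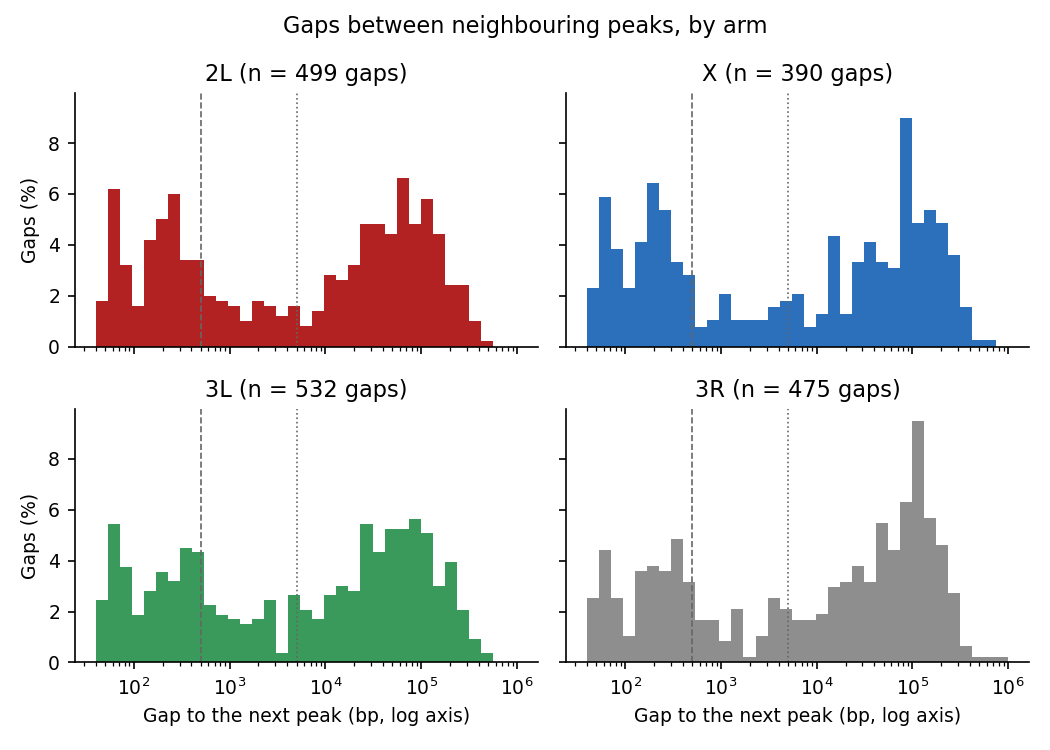
Gaps between neighbouring peaks of any width in bp (horizontal log axis) as a percentage of the gaps of each arm (vertical axis), with dashed lines at 500 bp and dotted lines at 5 kb. On 2L 33.9% of gaps lie left of the dashed line and 13.2% between the lines, and the shares between the lines are 11.0% on X, 15.4% on 3L and 12.4% on 3R.

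When neighbours with gaps under 5 kb were counted as a run, the peaks that stood alone scored higher than those in runs. The 500 2L peaks formed 265 runs: 168 single peaks, and 97 of 2 or more, among them 22 of at least 5. Among the members, 150 stood alone with a median score of 38.57 (interval 26.88 to 55.72). The median was 23.06 (interval 19.2 to 25.26) for the 80 in runs of 2, 14.99 (interval 12.4 to 18.92) for the 78 in runs of 3 to 4, and 14.735 (interval 13.12 to 16.7) for the 120 in runs of 5 or more. On 2L the interval of single peaks overlapped none of those of the 3 classes of run, but these intervals count neighbours as independent. On X, 3L and 3R, each taken apart, the interval of single peaks did overlap that of runs of 2. Width on 2L did not follow the order of the median scores: the median width was 456 bp for single peaks and 524 bp in runs of 5 or more. A score of 100 or more was reached by 34 of the 150 single peaks (22.7%, interval 16.7 to 30.0%) and by 3 of the 120 in runs of 5 or more (2.5%, interval 0.854 to 7.09%). Put the other way, 34 of the 48 high-scoring peaks stood alone (70.8%, interval 56.8 to 81.8%), against 116 of the 380 with lower scores (30.5%, interval 26.1 to 35.3%).

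Among neighbouring members less than 500 bp apart, scores differed by a median factor of 1.34, and in none of the 108 pairs did both reach 100. In 105 of them neither did and in 3 only 1 did, so few pairs could have held 2 such peaks. Among the 211 pairs of neighbouring members 5 kb or more apart the factor was 2.26. Both reached 100 in 8 of these pairs and only 1 did in 59. X, 3L and 3R together were alike, with factors of 1.40 over 253 close pairs and 2.22 over 650 distant pairs. Both peaks reached 100 in 0 and 15 of these, and only 1 did in 7 and 169. The 48 high-scoring members on 2L were never within 5 kb of each other: the shortest distance was 15950 bp and the median 240146 bp. They were spread over a span of 22.7 Mb, and the spacing expected of so few peaks was not computed.

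**Figure D3:**
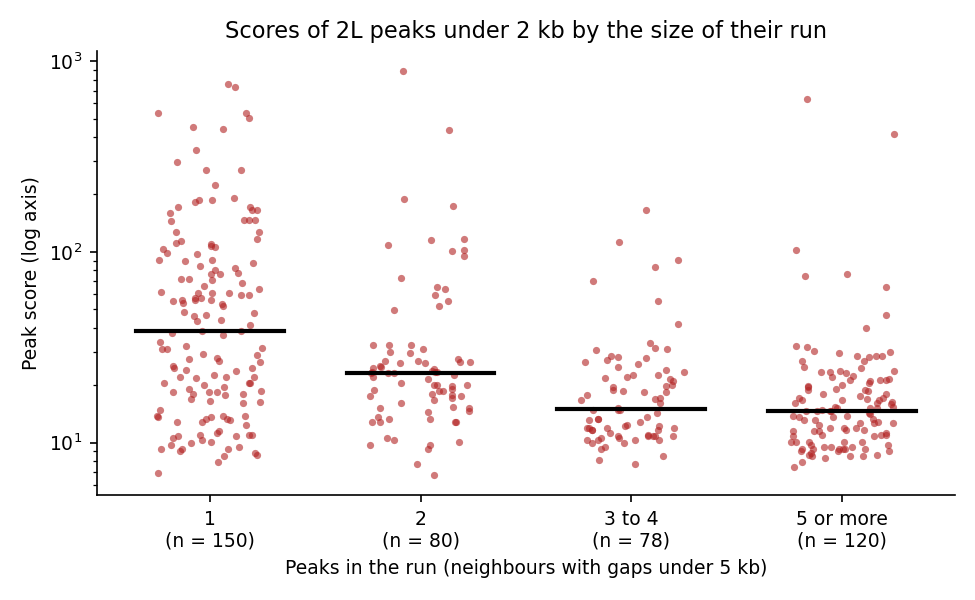
Peak score (vertical log axis) of each 2L peak under 2 kb, by the number of 2L peaks in its run of gaps under 5 kb (horizontal axis), with black bars at the medians. The bars stand at 38.57 for single peaks, 23.06 in runs of 2, 14.99 in runs of 3 to 4 and 14.735 in runs of 5 or more, and the points above 100 lie mainly in the first class.

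The runs with the most members under 2 kb had low-scoring members. None of the 15 runs with 5 or more members held a member scoring 50 or more, a score that 95 of the 428 members reached. The highest member score in these runs was 46.84, close to that limit. Counted by peaks of any width, 4 of the 22 runs of 5 or more held a peak of 100 or more. The most peaks in a run were 9, in 5 runs. In 3 of them all 9 peaks were members. The run at 2L 348066 to 355332 had 9 peaks with scores of 8.67 to 14.61, which covered 70.5% of its 7267 bp. Its highest, at 352223 to 354050, was also its widest at 1828 bp. The run at 2L 8723182 to 8731349 had 9 peaks with scores of 8.47 to 18.63 and covered 74.2% of 8168 bp, with its highest score in a peak of 292 bp at its low end. The run at 2L 21041355 to 21048624 had 9 peaks with scores of 8.27 to 28.55 and covered 86.2% of 7270 bp, and its highest, at 21041355 to 21042940, was again its widest. In all 3, peaks covered most of the run and none scored above 28.55. A run of 8 at 2L 17273520 to 17277355 scored 8.86 to 21.54, highest at 17275286 to 17275746. A run of 7 at 2L 12732618 to 12743463 scored 11.01 to 23.68, highest at 12739589 to 12741170. It had as many members as 2 other runs, at 2L 12933976 to 12940743 (scores 7.88 to 16.7) and 2L 15447823 to 15452650 (scores 8.67 to 17.52). A break of 4153 bp divided the run from 12732618 into groups of 4 and 3 peaks. The other 2 runs of 9 held 3 members each beside peaks of 2 kb or more. The one at 2L 8088607 to 8118201 scored 18.92 to 105.7, with its highest member at 21.24. The one at 2L 21428108 to 21471746 scored 20.95 to 109.01, with its highest member at 102.42.

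Members beside broad peaks, those of 2 kb or more, were a minority. A broad peak lay within 5 kb of 65 members (15.2%, interval 12.1 to 18.9%). Their median score was 23.37 (interval 20.95 to 26.88) and their median width 696 bp, against 18.35 (interval 16.97 to 20.65) and 456 bp for the 363 others. The order of these median scores was reversed on X, with 20.07 beside a broad peak and 22.45 elsewhere. On 3L they were 20.07 and 17.79, and on 3R 20.505 and 19.78. By the 5 kb rule none of the 65 on 2L could stand alone, while 150 of the 363 others did. The 65 were not set beside members of runs away from broad peaks. Of the 48 high-scoring members 5 were beside a broad peak. The cluster of very broad peaks near the base of the arm, 2L 21428108 to 21543676 when gaps under 15 kb are joined, held 5 members among its 16 peaks. They were 346 to 1883 bp wide and scored 20.95 to 102.42. The one at the low end of the cluster, 21428108 to 21429990, was the widest member of all and scored 76.58. The member at 21471258 to 21471746, 489 bp wide, scored 102.42, and the next peak began after a gap of exactly 9999 bp.

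Along the arm the members were present in every 1 Mb bin. The 23 bins held 9 to 34 members with a median of 16. The 5 fullest held 142 (33.2%): 34 at 21 to 22 Mb, 28 at 0 to 1 Mb, 28 at 19 to 20 Mb, 27 at 8 to 9 Mb and 25 at 12 to 13 Mb. Counted by runs that hold a member, those bins had 16, 13, 12, 12 and 11. The emptiest bin, 2 to 3 Mb, held 9 members in 7 runs. The 5 fullest bins had median scores of 17.65 at 21 to 22 Mb, 14.995 at 0 to 1 Mb, 24.315 at 19 to 20 Mb, 18.63 at 8 to 9 Mb and 17.23 at 12 to 13 Mb. In the same order they held 2, 3, 4, 3 and 1 members of 100 or more. The most high-scoring members, 5 each, were at 1 to 2 Mb and 18 to 19 Mb, and 6 bins had none. No high-scoring member lay in the 2820720 bp between 14021682 and 16842403. The 5 longest stretches with no peak of any width were 14991421 to 15447822 (456402 bp), 12074306 to 12483231 (408926 bp), 14021683 to 14370200 (348518 bp), 11218235 to 11541856 (323622 bp) and 16518948 to 16842402 (323455 bp). All 5 lay between 11 and 17 Mb. Assembly gaps were not taken into account.

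At the width limit, the 5 widest members were 1828 to 1883 bp wide and the 5 narrowest peaks beyond it 2013 to 2162 bp. Inside, the widest after 21428108 were 2L 16960825 to 16962682 (score 19.78), 20307435 to 20309280 (13.61), 5342970 to 5344804 (21.84) and 352223 to 354050 (14.61). Outside, 2L 8458616 to 8460628 scored 23.37, 7048102 to 7050141 scored 386.44, 6363992 to 6366082 scored 197.34, 11543014 to 11545125 scored 29.56 and 10160302 to 10162463 scored 21.24. None of the 5 members inside the limit reached 100, while 2 of the 5 peaks outside it did. Of all 69 members wider than 1000 bp, 8 reached 100 (11.6%), so none among 5 is not unusual. With 5 peaks on each side, no change of score at the limit is read from these values.

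Set beside the other arms, the 2L peaks under 2 kb had a similar median score. It was 19.78 on 2L, against 21.24 on X (interval 19.2 to 23.06), 18.35 on 3L (17.23 to 19.48) and 19.925 on 3R (17.79 to 21.54), and each of these intervals overlapped that of 2L. The difference from the 3 arms together, 2L minus the others, was 0.3. Scores come in steps: the 428 members had 195 distinct scores, and 319 of them shared theirs with another member. Between the medians of 2L and of the other arms together the list had 0 further score values, and between those of 2L and X it had 5. Scores of 100 or more were held by 11.2% of peaks on 2L, against 12.1% on X, 10.9% on 3L and 9.91% on 3R. Scores of 200 or more were held by 3.74% on 2L (interval 2.31 to 5.99%), against 5.28% on X, 6.85% on 3L and 5.66% on 3R, together 6.02% (interval 4.81 to 7.50%). Scores of 300 or more were held by 2.80% on 2L and 2.97% on the other 3 arms together. Scores of 500 or more were held by 7 peaks on 2L (1.64%, interval 0.794 to 3.34%), against 1 on X, 2 on 3L and 6 on 3R, together 0.742% (interval 0.391 to 1.40%). The top peaks of those arms were X 1528849 to 1529563 (score 596.15), X 1977690 to 1978557 (489.43), X 3327485 to 3328062 (450), 3L 18178706 to 18179496 (927.33), 3L 21872812 to 21873928 (609.29), 3L 7711378 to 7712241 (468.29), 3R 7603888 to 7605533 (754.91), 3R 11054707 to 11055736 (740.97) and 3R 24983369 to 24984095 (698.6).

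**Figure D4:**
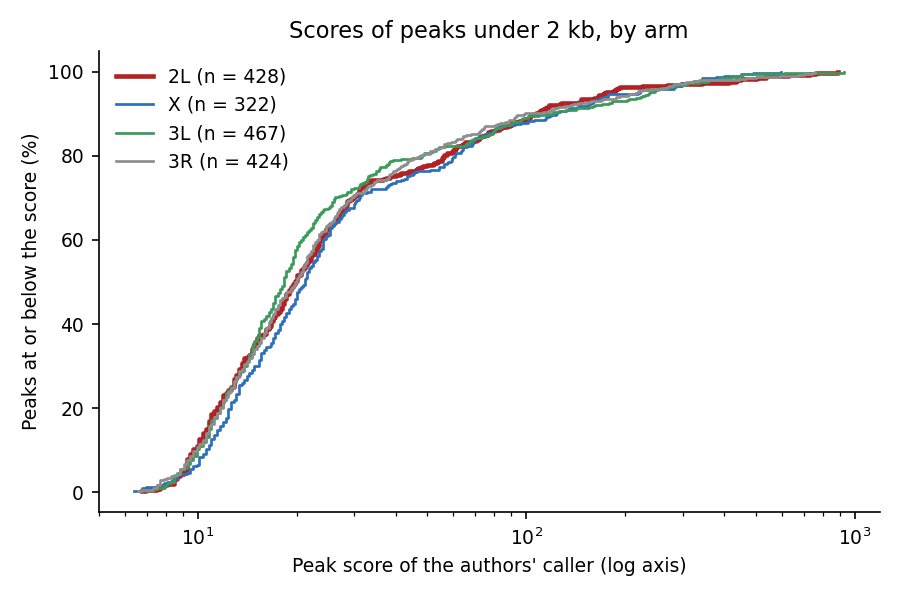
Percentage of peaks under 2 kb at or below each peak score (vertical axis) against the score (horizontal log axis), for 2L (428 peaks), X (322), 3L (467) and 3R (424). The 4 curves run close together, with medians of 19.78 on 2L, 21.24 on X, 18.35 on 3L and 19.925 on 3R.

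Over the span between an arm's outermost peaks, peaks under 2 kb numbered 18.9 per Mb on 2L, against 14.4 on X, 19.2 on 3L and 15.3 on 3R. They made up 44.8% of the bases covered by peaks on 2L, against 42.6% on X, 53.8% on 3L and 58.2% on 3R. Runs of 5 or more peaks held 120 of the 428 on 2L (28.0%, interval 24.0 to 32.5%), against 17.1% on X (interval 13.4 to 21.6%), 19.3% on 3L (16.0 to 23.1%) and 15.6% on 3R (12.4 to 19.3%). The interval of 2L lay above those of the other 3 arms, but it counts peaks as independent. The 120 peaks on 2L came from no more than 22 runs, so the interval is too narrow for a comparison of arms. Without the 2 Mb of each arm's span on the centromere side the shares were 26.4% on 2L (interval 22.2 to 31.2%), against 17.3% on X (13.3 to 22.2%), 15.5% on 3L (12.2 to 19.4%) and 13.6% on 3R (10.5 to 17.5%), and the intervals of 2L and X then met. The share beside a broad peak was 15.2% on 2L, against 26.4% on X (interval 21.9 to 31.5%), 13.5% on 3L and 15.6% on 3R. Single peaks scored higher than those in runs on the other arms too, with medians of 31.99 for single peaks and 14.61 in runs of 5 or more over X, 3L and 3R together. Rank correlation between width and score was 0.49 on 2L, against 0.39 on X, 0.56 on 3L and 0.46 on 3R. With 1 list and peaks that are not independent, no test of these differences was made, and none is called particular to 2L.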

How the data were processed

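The 6 libraries (3 ChIP, 3 input) are represented by 1 peak list with a score for each peak, as the authors deposited it. Its header names FlyBase release 5 and its source column MACS, per the file headers. CASAVA 1.7.0.2 and 1.7.0.3, BWA, MACS2 and build BDGP5 are named in the submitters' processing notes. The definition of the score, its threshold and the handling of replicates and inputs were not given in the sources used here. Columns of other samples numbered 0. Read depth per library is unknown, and PCR duplicates or reads that match several places can have affected the calls.

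Peaks were selected by sequence name and width (under 2000 bp). Gaps were measured between neighbouring peaks of any width, and runs join gaps under 5 kb. Shares have Wilson intervals and medians order-statistic intervals at 95%. No test was made. Peaks named are the 20 highest and 5 lowest scores, the 5 on each side of the width limit, the 5 runs with the most members (ties by position), the 5 fullest bins of 1 Mb, the 5 longest empty stretches and the 3 highest scores of each other arm. The single wide peaks, the broad cluster and the runs tied or equal in peak number were named after their values were seen. The regions and rules were chosen with earlier results of these data known. Functions were checked on simulated peaks. Computations ran in Python 3.11.15 with pandas 2.3.3, numpy 2.4.6 and scipy 1.17.1, and plots were drawn with matplotlib 3.10.9.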

Additional observations from a re-analysis of the deposited data

How the results depend on the processing

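Over 8 results, 31 of 55 alternatives stayed within the interval of the value reported (for the density, within 1.5 times) and 24 did not. The results for the high-scoring single peaks and for runs of 5 or more, and their alternatives, were chosen after seeing the data. At or above the list's median score, the density was 8.56 per Mb, the median score 48.075, the share of gaps under 500 bp 17.0%, the rank correlation 0.17 and the share in runs of 5 or more 6.70%. At or above the upper quartile these were 4.46 per Mb, 97.58, 6.87% and 0.0313, the share beside a broad peak was 7.07%, and the median difference, 2L minus the other arms, was -5.94 against 0.3 for all. Both sets are chosen by the score, which fixes the first 2 values. Dropping low-scoring peaks also removes neighbours and narrows the range of scores. The values for gaps, runs, broad neighbours and rank correlation therefore depend on that choice too. From the limits of the medians' intervals, the median difference ranged from -44.88 to 18.91 at or above the upper quartile and from -1.72 to 3.21 for all. It was also negative, at -0.29 (range -2.91 to 2.98), without the 2 Mb of each arm's span on the centromere side. Each of these ranges includes both signs. With gaps under 500 bp joined, the density was 11.2 per Mb, the median score 26.56, the share beside a broad peak 9.45% and the share in runs of 5 or more 1.57%. These shares are of the 254 regions under 2 kb left after joining, not of the 428 members. With 1 peak kept per run, the density was 9.53 per Mb and the median score 30.94. Gaps under 500 bp made up 20.9% among peaks under 1 kb and 27.0% among those under 3 kb, counted between the peaks kept. Gaps under 1 kb made up 38.9% and under 5 kb 47.1%. High-scoring peaks stood alone in 83.3% at a distance of 2 kb and 45.8% at 20 kb, and runs of 5 or more held 38.3% at 20 kb. Shares of gaps at the wider limits of 1 and 5 kb are higher by construction, and so is the share in runs at 20 kb. Likewise, the share standing alone can only rise at a shorter distance and fall at a longer one. The other settings keep fewer peaks or use other limits, and the causes of the shifts were not tested. The share beside a broad peak was 18.6% at or above the list's median score, against 15.2% for all and 7.07% at the upper quartile. Keeping 1 peak per run gives no value for gaps or for broad neighbours, and these were not run. No paired analysis was possible because single libraries have no values of their own in the deposited list, and no replicate could be left out. Depth is unknown.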

Other observations

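Exactly equal long gaps occurred on 2L. The length counted here, 9999 bp, was taken from 2L as its commonest gap of 5 kb or more. Other repeated lengths were not searched for on X, 3L and 3R, so the counts do not compare the arms. Of its 499 gaps, 3 were 9999 bp long, all in the cluster of broad peaks near the base of the arm, against 0 of 390 on X, 0 of 532 on 3L and 1 of 475 on 3R. On 2L they followed the peaks ending at 21471746, 21490597 and 21512217, with widths of 489, 4906 and 11621 bp and scores of 102.42, 91.25 and 102.42. The peaks after them began at 21481746, 21500597 and 21522217 and scored 104.06, 102.42 and 78.54. The first of the 3 gaps follows a peak under 2 kb. The sequence in these gaps was not analysed here.

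The scores of neighbouring 2L peaks under 2 kb were also set side by side. Across the 108 pairs with gaps under 500 bp Spearman's rho was 0.26, and across the 211 pairs 5 kb or more apart it was 0.16, while the 3 other arms together gave 0.24 over 253 pairs and 0.07 over 650. These are correlations across peaks of 1 list and are given as a description. The narrowest width in the list, 201 bp, was shared by 7 members on 2L, against 4 peaks on X, 5 on 3L and 7 on 3R.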
